A study of Mus musculus with 19 samples.

Results

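Cytochrome c oxidase, complex IV of the respiratory chain, is described here through the genes of 4 subunits that exist in paired isoforms: Cox4i1 and Cox4i2 for subunit 4, Cox6a1 and Cox6a2 for subunit 6a, Cox7a1 and Cox7a2 for subunit 7a, and Cox8a and Cox8b for subunit 8. The members were chosen by name, as the probes whose gene name in the scanner files is a member of a pair, and 9 of the 41174 probes on the array matched, which gave 8 of 27793 gene names. Cox7a2 had 2 probes and each other gene had 1.

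Complex IV takes electrons from cytochrome c and passes them to oxygen while pumping protons across the inner mitochondrial membrane. Its catalytic core is encoded in the mitochondrial genome, and smaller subunits encoded in the nucleus surround it. For subunits 6a, 7a and 8, heart and skeletal muscle contain a muscle type (Cox6a2, Cox7a1 and Cox8b), while other tissues contain a ubiquitous, or liver, type (Cox6a1, Cox7a2 and Cox8a), and the muscle types are known to be switched on as muscle matures. Subunit 4 is paired differently, since Cox4i1 is found in nearly all tissues and Cox4i2 is known from lung and from cells of vessel walls. Cox7a1 and Cox8b are also abundant in brown adipose tissue.

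RNA was hybridised to 1-colour Agilent mouse arrays, 1 per sample, with 19 samples in 4 groups. C2C12 cells, a mouse myoblast line, had been transfected with plasmids and selected as stable lines with hygromycin B and geneticin, each at 500 µg/ml, and were harvested 48 h after seeding. The control group carried empty plasmids (n = 6) and the HDAC4/5 group carried plasmids for human HDAC4 and HDAC5, class IIa histone deacetylases that are known to bind MEF2 factors (n = 6). Since the cells of both groups came from stable lines, the groups differ in line as well as in plasmid. Soleus, a muscle rich in slow fibres, came from male mice of 12 weeks after a fast of 5 h, either db -/+ controls (n = 3) or db +/+ mice (n = 4), here called db/db, which lack the long leptin receptor in every cell and are obese. Per the study's methods, points are separate dishes or single mice. For both C2C12 groups and the db/db mice, the methods give fewer biological replicates for the arrays than the labels list here, without naming them. Some arrays of these groups may thus not be separate biological samples, and p-values then measure only the spread between arrays.

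Levels are given as log2 of the background-subtracted intensity minus the 75th percentile of the array, so that 0 is the level of a fairly bright probe. The 75th percentile itself ran from 564 to 1691 on control C2C12 arrays, from 494 to 873 on HDAC4/5 arrays, from 153 to 555 on control soleus arrays and from 180 to 686 on db/db arrays. The scanner software marks a spot as saturated at its ceiling, where the value is only a lower bound, and as well above background or not. Levels of different probes are not compared with each other, because each probe has its own brightness. The labels were checked through Hdac5, whose mouse probe was higher in HDAC4/5 cells by a log2 step of 1.42 (adjusted p = 0.000389 from limma), while Hdac4 differed by -0.05 (adjusted p = 0.347 from limma). Whether these mouse probes also bind the human plasmid RNA was not tested. Of 7 genes fixed as markers of differentiated muscle, including Ckm, Myog and Acta1, all 7 were well above background on every control C2C12 array and every soleus array, and 2 were on every HDAC4/5 array.

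The probes are printed for the genes that the comparisons turn on. The Cox7a1 probe lies at chr7:30970337-30970948 on mm9 (plus strand), where its 60 bases are split by a gap of 552 bases in the genome. The brighter Cox7a2 probe lies at chr9:79603227-79603286 and the Cox8b probe at chr7:148084852-148084911, both on the minus strand. For the latter pair the last 30 bases are shown, with capitals for AATAAA or ATTAAA, the letters of polyadenylation signals, which lie near the ends of transcripts.
Cox7a1: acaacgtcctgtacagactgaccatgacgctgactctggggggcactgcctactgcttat
Cox7a2: attgatgtgtattaactgctgccAATAAAg
Cox8b: cacatccctgagagatttcATTAAAcatgt
The probes of a pair are unlike each other, with a longest shared run of 5 bases for subunit 4, 4 for subunit 6a, 6 for subunit 7a and 5 for subunit 8, on the same strand. The other Cox7a2 probe, at chr9:79603215-79603274, shares 48 bases with the brighter Cox7a2 probe, so that these 2 probes are not independent readings. The remaining probes lie at chr8:123197924-123197983 for Cox4i1 (plus strand), chr2:152579950-152580939 for Cox4i2 (plus strand, with a gap of 930 bases), chr5:115795726-115795785 for Cox6a1 (minus), chr7:135349160-135349219 for Cox6a2 (minus) and chr19:7289727-7289786 for Cox8a (minus). Exon boundaries of this build were not used here.

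To ask how the isoforms differed between C2C12 cells with and without HDAC4 and 5, the 12 C2C12 arrays were compared. Cox7a1, the muscle type of subunit 7a, fell 9.35-fold in HDAC4/5 cells, and Cox8b, the muscle type of subunit 8, fell from a measured level to one not well above background. Cox7a2, the ubiquitous type of subunit 7a, rose 2.03-fold. Cox6a2, the muscle type of subunit 6a, was 1.23-fold lower, a call that did not survive several other ways of processing. The probes of Cox4i1, Cox6a1 and Cox8a were saturated on all 12 arrays, and Cox4i2 was not well above background on any. The limma fit covered 14142 genes, of which 69.3% passed the adjusted p of 0.05, and 4 of the 7 members tested passed it, so that the share of members called is below that of all genes and is no result about them.

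**Figure D1:**
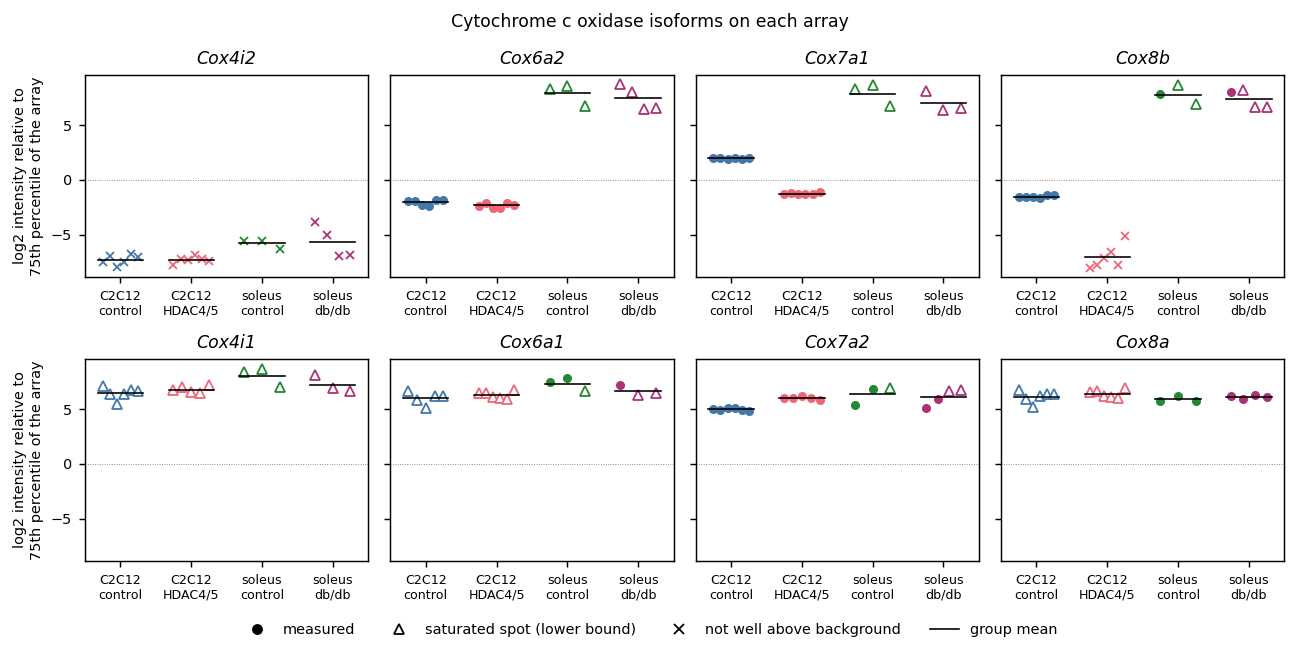
Each panel shows 1 gene of a pair, with the muscle-type isoforms and Cox4i2 above their ubiquitous partners, and each point is 1 array. The vertical axis is the log2 intensity relative to the 75th percentile of the array, lines are group means, open triangles are saturated spots and crosses are spots not well above background, and spots marked as outliers are not drawn. Cox7a1 lies near 1.97 in control and -1.26 in HDAC4/5 C2C12 cells, and on the soleus arrays its spots were saturated.

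Cox7a1 ran from 1.86 to 2.03 (median 1.97) on the 6 control arrays. On the 6 HDAC4/5 arrays it ran from -1.31 to -1.13 (median -1.28). Every HDAC4/5 array was thus below every control array, and the gap between the groups was far wider than the spread within either. The means were 1.97 ± 0.06 (SD, n = 6) and -1.26 ± 0.06 (SD, n = 6), which differed by -3.22 with an SE of 0.05 (limma, adjusted p = 7.44e-15). The two-sided exact permutation test over arrays gave p = 0.00216, the smallest that 6 against 6 arrays allow. Within the 3 slides, each of which held 2 arrays of both groups, the difference was -3.31, -3.20 and -3.17. On the scale of the scanner, the intensity fell from a median of 3043 to a median of 296, so that the gene was dimmer but still well above background on every HDAC4/5 array.

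Cox8b ran from -1.69 to -1.39 (median -1.53) on the control arrays and was well above background on all 6 of them. It was well above background on 0 of the 6 HDAC4/5 arrays, where the values ran from -8.03 to -5.12 (median -7.44). These readings are near the limit of the array, so only a bound can be given for the size of the fall. When each HDAC4/5 array was credited with its dimmest signal that still counted as above background, Cox8b was at least 14.6-fold lower. The p-values belong to the readings themselves, not to this bound (adjusted p = 4.84e-08 from limma, exact permutation test, two-sided, p = 0.00216). Cox8b was tested only because the control arrays passed the background filter, and the stricter filter left it out. With normexp background correction, which adds an offset of 50 to each intensity, the difference was -1.70 (adjusted p = 0.000904 from limma), smaller than this bound, so the size of the fall depends on the background correction. In intensity the control arrays read a median of 266 and the HDAC4/5 arrays 4.75, and the groups did not overlap.

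Cox7a2 ran from 4.87 to 5.11 (median 4.98) on the control arrays. On the 5 HDAC4/5 arrays whose spot was not marked as an outlier it ran from 5.84 to 6.16 (median 6.03). The ubiquitous type was therefore higher on each of these HDAC4/5 arrays than on any control array. The step was 1.02 with an SE of 0.07 (n = 6 and 5, limma, adjusted p = 4.68e-08), and the exact permutation test, two-sided, gave p = 0.00216. Within slides it was 1.02, 1.01 and 0.96. The second, overlapping probe gave 0.95 (SE 0.07, n = 4 and 3, adjusted p = 5.33e-06 from limma on all probes), with 2 control and 3 HDAC4/5 spots marked as outliers. No Cox7a2 spot was saturated in C2C12 cells, although the HDAC4/5 intensities of the brighter probe, from 40261 to 55843, lay near those of saturated Cox8a spots, which began at 55090 in the same group.

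Because both isoforms of subunit 7a were read below saturation in C2C12 cells, their balance could be followed on each array as log2 of Cox7a1 minus log2 of Cox7a2. The value itself mixes the brightness of 2 probes, and only its change between groups is read. It ran from -3.21 to -2.89 on the 6 control arrays, and on the 5 HDAC4/5 arrays it was -7.29, -7.27, -7.45, -7.31 and -7.12. The groups did not overlap, and the mean went from -3.01 ± 0.13 (SD, n = 6) to -7.29 ± 0.12 (SD, n = 5), a change of -4.27 (SE 0.07), or 19.4-fold (exact permutation test, two-sided, p = 0.00216). Within slides the change was -4.33, -4.21 and -4.20, and with the second Cox7a2 probe it was -4.20 (n = 4 and 3, exact permutation test, two-sided, p = 0.0286). No ratio was taken for the other pairs, since each had a partner that was saturated on every C2C12 array.

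**Figure D2:**
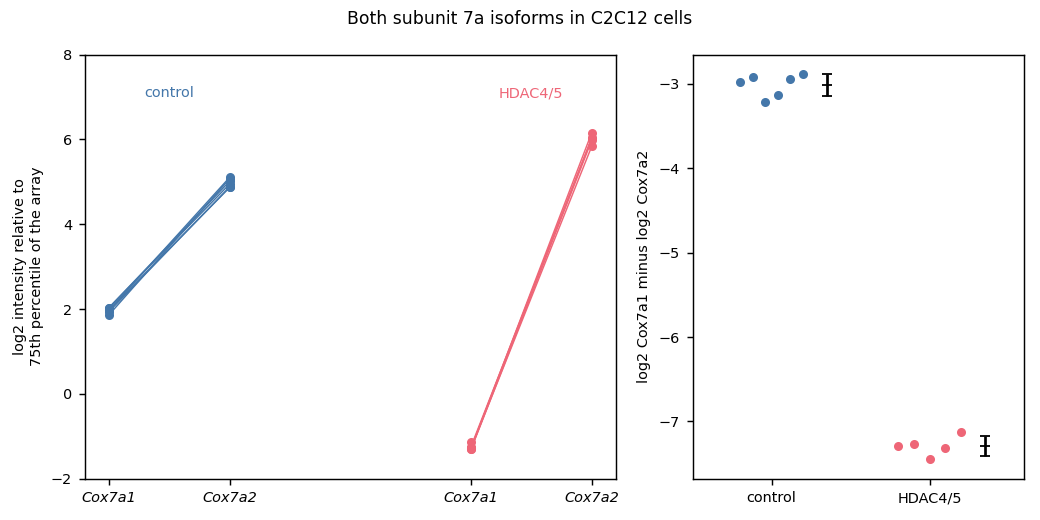
Left, the log2 intensity relative to the 75th percentile of the array for Cox7a1 and Cox7a2, with a line joining the probes of 1 array, in control and HDAC4/5 C2C12 cells. Right, the log2 difference between the probes on each array, with the mean and SD beside the points, at -3.01 in control cells and -7.29 in HDAC4/5 cells.

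Cox6a2 was dim in both groups, from -2.34 to -1.80 (median -1.96) on the control arrays and from -2.55 to -2.07 (median -2.35) on the HDAC4/5 arrays. The groups overlapped. The difference was -0.30 (SE 0.11, adjusted p = 0.0336 from limma, exact permutation test, two-sided, p = 0.0390). Within slides it was -0.31, -0.23 and -0.35, and with slide as a block the adjusted p was 0.000398. The sign turned with normexp background correction, at 0.018 (adjusted p = 0.929 from limma), and the adjusted p from limma was 0.0994 with quantile normalization. The call was also lost without control replicate 1, 2, 5 or 6 or HDAC4/5 replicate 1, 3 or 4, each left out alone, where the difference ran from -0.29 to -0.25 (adjusted p = 0.0617 to 0.0744 from limma). The muscle type of subunit 6a thus moved by a far smaller log2 step than Cox7a1, and its call depended on the processing.

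The saturated probes give no fold in C2C12 cells. Cox4i1, the ubiquitous type of subunit 4, read intensities from 71076 to 81547 in control cells and was saturated on all 6 arrays of both groups. Cox6a1 was likewise at its ceiling, with medians of 55936 and 54886, and so was Cox8a, with medians of 60023 and 58927. Whether these 3 ubiquitous types rose, as Cox7a2 did, or fell could not be measured. For Cox4i2, the intensity had a median of 5.78 in control and 4.46 in HDAC4/5 cells, below the level called above background on every array.

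The differentiated muscle markers moved in the same direction as Cox7a1 and Cox8b. The summed level of the 7 genes, relative to the 75th percentile, was 95.2 to 104 on the control C2C12 arrays and 0.285 to 0.504 on the HDAC4/5 arrays, and Ckm, the muscle creatine kinase, was well above background on none of the latter. Of 6 myoblast markers, 4 were on every control array and 3 on every HDAC4/5 array, with Myod1 on none of the HDAC4/5 arrays and Myf5 and Pax7 on none of either group. The summed level of the 6 myoblast markers also fell, from between 84.3 and 181 on the 5 control arrays without an outlier spot, where saturation makes it a lower bound, to between 5.22 and 7.11 on the HDAC4/5 arrays. Des, the intermediate filament desmin, fell by 8.45 on the log2 scale (adjusted p = 3.45e-13 from limma), with 2 control spots saturated. Of 5 brown adipocyte markers, 4, among them Ucp1 and Cidea, were well above background on no C2C12 array. Per the study's methods the HDAC4/5 cells were analysed as myoblasts, and the part of the differentiation state in the isoform differences was not tested.

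The rest of complex IV was set beside the isoforms. These lists were fixed by name, with earlier results of these data known. Of 13 other subunits and cytochromes c, 11 were tested in C2C12 cells, 2 rose, 2 fell and 7 did not pass, with a median log2 difference of 0.10 beside 0.05 for all genes tested. At least 1 C2C12 spot was saturated in 5 of these 11, Cox5a, Cox5b, Cox6c, Ndufa4 and Cycs, and none of these 5 passed. A change in them could be hidden by the ceiling. Of 28 assembly and expression factors, 26 were on the array, 8 rose, 11 fell and 7 did not pass, with a median of -0.15. Over all genes tested 69.3% passed, 5160 higher and 4642 lower, so movement in both directions is no result about complex IV. The genes of these lists without a saturated spot moved by less than Cox7a1.

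Cox7b2, the testis form of subunit 7b, rose from -3.30 ± 0.23 (SD, n = 6) to -2.09 ± 0.17 (SD, n = 6), a log2 difference of 1.21 (adjusted p = 4.10e-07 from limma). Cox16, which takes part in the assembly of the copper centre of subunit 2, fell from 3.93 ± 0.05 to 2.73 ± 0.14, by 1.21 on the log2 scale (adjusted p = 2.00e-09 from limma), and with the mean of all its probes it differed by -0.50 (adjusted p = 0.000526 from limma). Coa3, an assembly factor for subunit 1, fell by 1.03 (adjusted p = 8.53e-08 from limma). These were the 3 genes of the lists past the adjusted p with a change of at least 1 on the log2 scale. Cyct, the testis cytochrome c, was not tested, since it was well above background on 0 control and 2 HDAC4/5 arrays. Among the smaller changes, Higd2a fell by 0.77, Cox7a2l by 0.68, Pet100 by 0.64, Cox20 by 0.60 and Coa4 by 0.51, and Cox10, which makes the heme a precursor, rose by 0.57. Cox7a2l, or Scaf1, is a relative of the subunit 7a isoforms that links complex IV to complex III, and it fell where Cox7a2 rose.

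**Figure D3:**
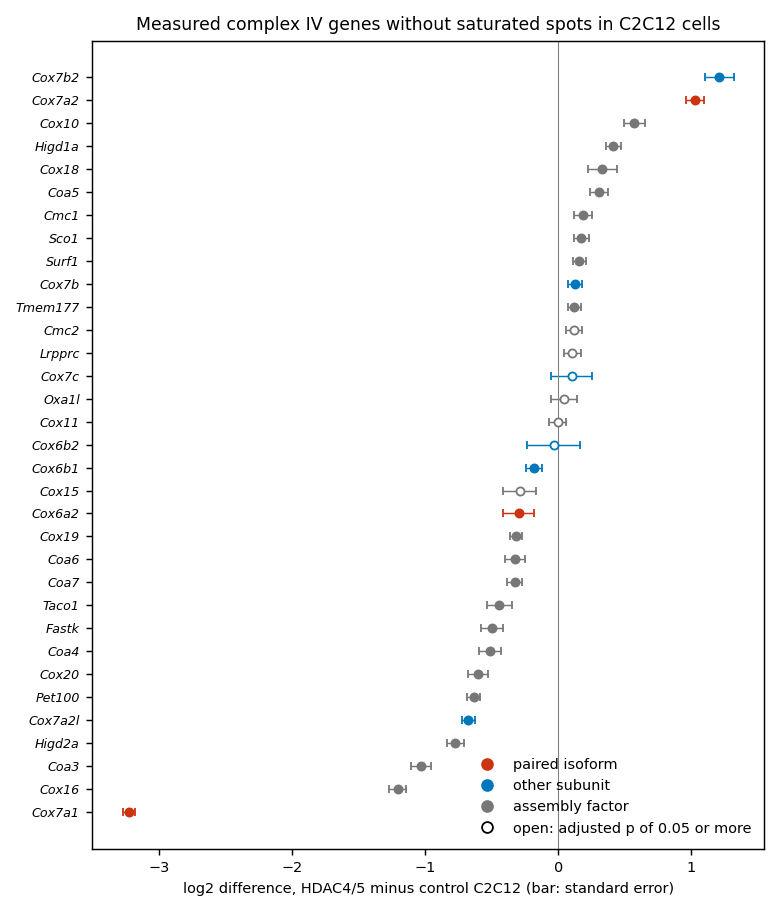
The log2 difference between HDAC4/5 and control C2C12 cells for 33 complex IV genes tested in limma with no saturated spot in C2C12 cells and, among the pairs, a level measured in both groups, with bars for the standard error. Filled points passed the adjusted p of 0.05, which 26 did, and Cox7a1 lies farthest from 0 at -3.22 while Cox7a2 lies at 1.02.

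Other mitochondrial proteins with a muscle-type isoform were read from the same fit. Cpt1a, the liver type of carnitine palmitoyltransferase 1, rose 2.59-fold in HDAC4/5 cells (1.37 on the log2 scale with an SE of 0.05, limma, adjusted p = 3.28e-11). Cpt1b, its muscle type, was low in both groups, at -3.49 ± 0.13 (SD, n = 6) and -3.34 ± 0.12 (SD, n = 6), with a difference of 0.14 (adjusted p = 0.0960 from limma). It passed as higher with slide as a block (adjusted p = 0.0321 from limma) and, at 0.33, with the mean of all probes (adjusted p = 0.000674 from limma), so that its call depended on the processing. Slc25a4, the muscle type of the adenine nucleotide carrier, was saturated on 5 and 4 of the 6 arrays and Slc25a5, its ubiquitous partner, on all 12. Ckmt2, the sarcomeric mitochondrial creatine kinase, was well above background on no C2C12 array, and Ckmt1, the ubiquitous form, on 2 control and 1 HDAC4/5 arrays.

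To see which isoforms separate muscle from these cells, control soleus was set against control C2C12 cells. All 3 muscle types were far brighter in soleus, on this scaling by at least 973-fold for Cox6a2, 631-fold for Cox8b and 60.0-fold for Cox7a1, while Cox8a, the ubiquitous type of subunit 8, was not. Of 7 members tested, 6 passed the adjusted p, beside 75.2% of the 15062 genes. The calls of Cox4i1 and Cox6a1 rested on probes that were saturated on all 6 C2C12 arrays and give no fold. Tissue, extraction method and slide cannot be told apart in this comparison, nor can a change in the cells present and a change in RNA per cell.

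Cox6a2 had a mean of -2.03 ± 0.22 (SD, n = 6) in control C2C12 cells and read 8.34, 8.61 and 6.74 on the control soleus arrays, all saturated (adjusted p = 3.06e-09 from limma). Cox8b had -1.52 ± 0.11 (SD, n = 6) and read 7.80, 8.67 and 6.89, of which the latter pair were saturated (adjusted p = 1.67e-09 from limma). Cox7a1 had 1.97 and read 8.26, 8.63 and 6.74, all saturated (adjusted p = 9.55e-08 from limma). After quantile normalization the differences were smaller, at 8.45 for Cox6a2, 8.16 for Cox8b and 4.56 for Cox7a1, so the bounds hold for the 75th percentile scaling only. Each soleus value lay above every C2C12 value, so that the muscle types ordered the sources of RNA in the same way although their folds are only lower bounds. Among the ubiquitous types, Cox7a2 was on this scaling at least 2.65-fold higher in soleus, with 1 of 3 soleus spots saturated (means 4.98 and 6.39, adjusted p = 0.00197 from limma). Its log2 difference was 1.41 here and ran from 0.88 to 1.92 over the alternatives. Cox8a had a mean of 6.13 in C2C12 cells, saturated on all 6 arrays, and 5.89 ± 0.24 (SD, n = 3) in soleus with no saturated spot, so that it was at least 1.18-fold higher in the cells on these means, a difference that did not pass (adjusted p = 0.485 from limma) although it did after quantile normalization (adjusted p = 0.00802 from limma).

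Other complex IV genes were mostly higher in soleus as well. Of the 11 other subunits tested, 9 were higher and 2 lower, with a median log2 difference of 1.75 beside -0.02 for all genes. Of the 26 assembly factors, 13 were higher and 2 lower, with a median of 0.61. At least 1 spot was saturated in 6 of these 11 subunits and in 4 of the 26 factors. The median subunit, Cox5b, was saturated on 5 of the 6 C2C12 arrays and all 3 soleus arrays. The median of 1.75 thus rests on saturated spots and gives no fold. Over all genes tested here 75.2% passed, 5614 higher and 5713 lower. The differences of Cox6a2, Cox7a1 and Cox8b, at 9.93, 5.91 and 9.30, were larger than these medians. Cpt1b differed by 10.2 (adjusted p = 3.69e-10 from limma), with 1 of the 3 soleus spots saturated. Ckmt2 was at least 11742-fold higher in soleus with this scaling and background (adjusted p = 1.79e-10 from limma). The p-value of Ckmt2 rests on C2C12 readings not well above background and does not belong to this bound. Over the alternatives its difference ran from 11.5 to 16.3 on the log2 scale, the lowest smaller than this bound, so the size depends on the processing. Cpt1a, the liver type, was lower in soleus by 0.89 on the log2 scale (adjusted p = 0.0150 from limma). In soleus, all 7 marker genes of pericytes and smooth muscle, cells known for Cox4i2, were well above background on every array, and Cox4i2 was so on 0 of the 7. Its probe was well above background on 0 of all 19 arrays, so nothing here shows that it can detect the transcript. Of the 5 brown adipocyte markers, 3, Cidea, Dio2 and Ppara, were well above background on every soleus array, and Ucp1 and Elovl3 were on none. The summed level of these 5 ran from 15.8 to 20.1 on 2 control soleus arrays and from 15.3 to 35.3 on 2 db/db arrays, the others having an outlier spot, against 1.31 to 1.38 in control C2C12 cells. Dio2 was also well above background on every C2C12 array. Of 7 white adipocyte markers, 6 were so on every control soleus array and 7 on every db/db soleus array. Whether adipocytes of either kind contributed to the Cox7a1 and Cox8b levels was not tested.

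In soleus, the question was whether the isoforms differed between db/db and control mice. None of the 7 members tested passed the adjusted p, beside 1 of 13046 genes, or 0.00767%, and 824 genes passed an unadjusted p of 0.05, none of them a member. With slide as a block 40 genes passed, 28 of them higher in db/db muscle, and again 0 members. The methods' t-test also called 0 of the 7 members, with or without adjustment. Cox8a was the 1 tested member with no saturated spot in either group. It read 5.72, 6.17 and 5.77 on the control arrays and 6.24, 5.97, 6.28 and 6.08 on the db/db arrays. The groups overlapped, and the difference of 0.26 (SE 0.27) did not pass (adjusted p = 0.959 from limma, exact permutation test, two-sided, p = 0.143). With 3 against 4 arrays that test cannot go below 0.0286. Within slides Cox8a differed by 0.16 and 0.41, and with slide as a block its adjusted p was 0.538.

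Cox7a2 read 5.36, 6.87 and 6.94 in control and 5.13, 5.89, 6.66 and 6.77 in db/db muscle, a difference of -0.28 (adjusted p = 0.983 from limma). The brightest values of each group were those of the slide on which the spot was saturated, which held 1 control and 2 db/db arrays. On the other slide, where no Cox7a2 spot was saturated, the difference was -0.60 with 2 arrays on each side. The second probe read 4.54, 6.29 and 6.85 in control and 5.07, 5.57, 6.63 and 6.67 in db/db muscle, a difference of 0.09 (adjusted p = 0.989 from limma on all probes). Within the slides the differences were negative for both probes, at -0.60 and -0.22 for the brighter and -0.10 and -0.20 for the second, which gave -0.14 with slide as a block.

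Cox8b read 7.80, 8.67 and 6.89 in control and 7.99, 8.20, 6.66 and 6.69 in db/db muscle, and was saturated on 2 and 3 of these arrays. Its difference of -0.40 did not pass (adjusted p = 0.975 from limma). Cox6a1 read 7.48, 7.85 and 6.69 in control muscle and 7.19, 6.29 and 6.50 on the 3 db/db arrays whose spot was not marked as an outlier, with 1 and 2 spots saturated (difference -0.68, adjusted p = 0.940 from limma). In both genes the values followed the slide more than the genotype, with the lower values on the slide of control replicate 3 and db/db replicates 3 and 4.

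Cox4i1, Cox6a2 and Cox7a1 were saturated on all 7 soleus arrays and give no fold between the genotypes. Their intensities hardly moved, within 1.33-fold for Cox4i1, 1.34-fold for Cox6a2 and 1.13-fold for Cox7a1 over the arrays drawn, while the scaled values spread over 2.02, 2.31 and 2.27 on the log2 scale. The scaled value of a saturated spot thus mostly returned the 75th percentile of its array, which was 153 to 232 on 1 slide and 555 to 686 on the other. Cox8a, unsaturated, spread over 5.39-fold in intensity and only 0.56 on the log2 scale after scaling. A muscle-to-ubiquitous ratio could not be read for any pair in soleus, because at least 1 partner was saturated on most or all arrays or, for subunit 4, not above background.

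**Figure D4:**
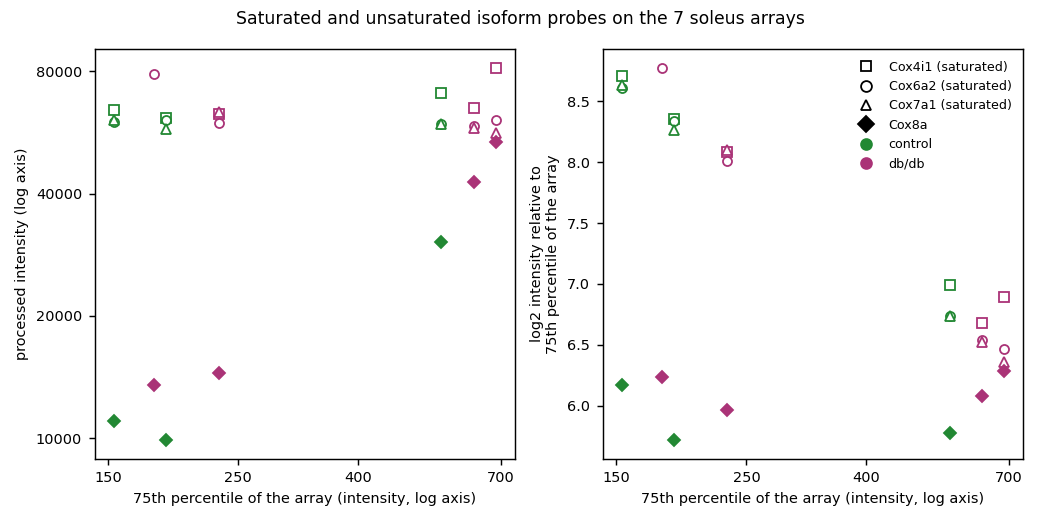
Left, the processed intensity of Cox4i1, Cox6a2 and Cox7a1, saturated on every soleus array, and of Cox8a, never saturated there, against the 75th percentile of each array, both on log axes. Right, the same spots as log2 relative to that percentile; saturated spots are flat in intensity and fall with the percentile once scaled, while Cox8a stays between 5.72 and 6.28, and spots marked as outliers are not drawn.

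None of the other complex IV genes passed in soleus either. Of the 10 other subunits tested there, 0 passed in limma, and 0 at an unadjusted p of 0.05, with a median log2 difference of -0.49 beside -0.02 for all genes, and 7 of them had at least 1 saturated spot. Of the 26 assembly factors, 0 passed in limma and 1 had an unadjusted p under 0.05, with a median of -0.12. Cpt1a differed by -1.20 between db/db and control muscle (adjusted p = 0.829 from limma) and Cpt1b by -0.20 (adjusted p = 0.981 from limma).

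The genes whose pattern over all 19 arrays was closest to each member were found as the smallest root mean square difference between log2 values, each centred on its own mean, among 15532 genes. For Cox7a1 these were Lpl (0.396), Tnnc1 (0.518) and Cbfa2t3 (0.552), and for Cox8b Myoz2 (0.592), Cacna1s (0.673) and Abra (0.732). For Cox6a2 they were Myo18b (0.572), 2310046A06Rik (0.599) and Zfp521 (0.629). For Cox7a2 they were Dhrs7 (0.185), Urod (0.207) and Dtwd2 (0.260). Cox4i1 was nearest to Mdh2, Ndufa13 and Rplp0, Cox6a1 to Adipor2, Iftap and Rpl9, and Cox8a to H3c14, Odc1 and Cd63, and Cox4i1 and its 3 neighbours were saturated on all 19 arrays. Cox6a1 was saturated on 15 arrays, against 3 each for Adipor2 and Iftap and 15 for Rpl9, and Cox8a on 12, against 13, 11 and 12 for its neighbours. Cox7a1 and Cox6a2 were saturated on 7 arrays and Cox8b on 5, so that these likenesses rest in part on values that are only bounds.

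The bases before the start of 5 of the 8 genes were read from the RefSeq promoter table on GRCm38.p6, and those of Cox7a1, Cox8b and Cox7a2, the members that changed most in C2C12 cells, are printed with motif matches in capitals. They span chr7:30183921-30184170 (plus strand), chr7:140900447-140900696 (minus) and chr9:79759854-79760103 (minus), 250 bases each.
Cox7a1: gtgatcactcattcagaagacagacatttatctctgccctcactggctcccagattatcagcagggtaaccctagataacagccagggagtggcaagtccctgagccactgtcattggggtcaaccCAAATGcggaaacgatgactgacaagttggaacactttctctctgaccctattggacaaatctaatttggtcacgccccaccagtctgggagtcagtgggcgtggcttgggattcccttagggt
Cox8b: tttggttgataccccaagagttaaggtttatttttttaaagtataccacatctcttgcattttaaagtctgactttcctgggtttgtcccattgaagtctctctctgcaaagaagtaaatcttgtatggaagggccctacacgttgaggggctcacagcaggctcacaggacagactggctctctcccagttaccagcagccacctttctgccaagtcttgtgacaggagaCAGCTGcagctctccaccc
Cox7a2: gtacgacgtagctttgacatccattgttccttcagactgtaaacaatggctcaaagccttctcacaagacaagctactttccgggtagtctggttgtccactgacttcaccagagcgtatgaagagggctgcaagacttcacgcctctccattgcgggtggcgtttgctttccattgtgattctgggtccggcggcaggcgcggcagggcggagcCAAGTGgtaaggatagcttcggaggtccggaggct
The motifs were the E-box CANNTG, its form CAGCTG, the MEF2 consensus, the estrogen-related receptor motif AAGGTCA, the NRF1 motif GCGCANGCG and the ETS motif CCGGAAG, on both strands. Each printed window held 1 E-box, which 66.2% of all 32817 windows of this length in the table do. In Cox8b it had the form CAGCTG, from base 19 to 14 before the start, a form found in 13.0% of windows and counted under both E-box motifs. No match to the MEF2 consensus, held by 2.92% of windows, or to AAGGTCA, held by 4.08%, lay in these 3 windows. Cox6a1 held GCGCANGCG at 3 overlapping or separate positions and CCGGAAG at 1, which 5.16% and 6.90% of windows hold at least once, and Cox8a held 1 E-box. These matches describe letters in a short window and were not set against any binding measurement.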

How the data were processed

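Expression was measured on 12 arrays of C2C12 cells and 7 arrays of soleus muscle. The authors deposited scanner intensities of each array from Feature Extraction 9.5.1.1, background-subtracted but not scaled between arrays, and a matrix that holds the ratio of each intensity to a constant of its array. All 19 arrays and all columns of the matrix belonged to a sample, but the db/db column numbers of the matrix did not match the scanner files of the same number, so it was used by group only. Coordinates are on mm9. RefSeq accessions renamed 2694 of 41174 probes. Here, log2 intensity minus the 75th percentile of all non-control spots was used, outlier spots were left out, saturated spots were kept, and the brightest probe stood for a gene. Genes were tested where all arrays of either group had them well above background. Groups were fitted with limma 3.58.1 in R 4.3.3 at a Benjamini-Hochberg adjusted p of 0.05, with exact permutation tests beside it, and the steps were tested on simulated data. Precision is limited by the few arrays, above all for soleus.

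The members and lists were chosen with earlier results of these data known. Named genes were all members, the complex IV genes past the adjusted p in C2C12 cells with a log2 change of at least 1, the 6 largest others, all 6 genes of the further isoform pairs, and the 3 nearest genes of each member. Arrays of equal replicate number deviated together, with correlations across genes of 0.192 to 0.552 in C2C12 cells (6 pairs) and 0.405 to 0.688 in soleus (3 pairs), as did other arrays of a slide (0.219 to 0.529 and 0.317 to 0.741), while those of different slides had -0.476 to 0.0490 and -0.655 to -0.390. The numbers pair the arrays through the slide, and the blocked values are given as alternatives.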

Additional observations from a re-analysis of the deposited data

How the results depend on the processing

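Results were recomputed under quantile normalization, normexp (offset 50) in place of the scanner background, the deposited matrix, no or a stricter dim-probe filter, averaged probes, no saturated spots, slide or replicate number as a block, the methods' t-test, a 1.5-fold minimum and each array left out in turn. A 75th percentile taken without outlier spots was added after the data were seen. Of 766 recomputed values, 735 kept their direction and side of the threshold, or stayed within 1.5 times for counts. Between 3 and 4 members were called in C2C12 cells and 0 in soleus. With the replicate block, the subunit 7a ratio changed by -4.25 and 4 members were called in C2C12 cells, and the block changed no member's call. With arrays left out in turn, the ratio changed by between -4.32 and -4.23.

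Cox6a2 in C2C12 cells lost its call under 10 alternatives, 7 of which left out 1 array, and reversed to 0.018 with normexp. Of the members called between control soleus and control C2C12 cells, 1 was left in the deposited matrix and 2 without saturated spots, where only 1 and 2 members could be tested. Cox8a in soleus became -0.060 with quantile normalization. With arrays left out, Cox7a2 in soleus ran from -0.79 to 0.051 and Cox8b from -0.85 to 0.042, positive without db/db replicate 1 and control replicate 2. The second Cox7a2 probe in soleus became -0.14 with either block. In C2C12 cells Slc25a4 became -0.023 with quantile normalization and -0.37 without saturated spots, and ran from -0.023 to 0.27 with arrays left out, and Cpt1b became -0.036 in the deposited matrix, and was called with slide as a block (0.14) and with averaged probes (0.33). Cox16 there moved to -0.50 with averaged probes. The causes were not tested. The median over all genes in C2C12 cells was 0.05, 0.12 with normexp and -0.12 in the deposited matrix. Genes called higher were 5160 of 9802, and 2758 of 7226 in that matrix. Over all its alternatives the subunit 7a ratio changed by between -4.33 and -3.85, and those of the soleus ratios were not run, since saturation left no pair readable there.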
